A study of Mus musculus with 8 samples.

Results

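The genes described are those of the cytosolic ribosomal proteins. A gene was taken when its mouse Ensembl identifier carries, in GENCODE M21, a protein-coding symbol made of Rpl or Rps and a number, with at most 1 suffix letter a, x, y or l, or when its symbol is Rplp0, Rplp1, Rplp2 or Rpsa. Genes of the S6 kinase family and of the mitochondrial ribosome were left out. This gave 80 of the 21859 gene identifiers in the count table, 49 of the large subunit and 31 of the small subunit. The samples were cultures of the mouse leukaemia line PER-M60, 8 in number, 4 of them in control media and 4 in osteoclast-conditioned media, that is, media taken from cultures of the bone-resorbing cells. The labels give no genotype, strain, time or dose, and all cultures are of the same line. The comparison addresses how the conditioned media change the transcriptome of the leukaemia cells. The labels number the cultures 1 to 4 in each group but do not state how they were set up, so p-values measure only the spread between these samples, which may be technical.

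The cytosolic ribosome is built from a small subunit, which reads the mRNA, and a large subunit, which joins amino acids and passes the growing chain through an exit tunnel. Nearly every ribosomal protein is present once in each ribosome, so the proteins are needed in equal numbers although their genes lie on many chromosomes. Most of their mRNAs begin with a C followed by a run of pyrimidines (C or T in DNA), the 5′ terminal oligopyrimidine (TOP) tract, through which mTOR signalling and LARP1 control their translation. Growing leukaemia cells make ribosomes at a high rate, and loss of single ribosomal protein genes causes the anaemia named after Diamond and Blackfan.

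The start sites are shown because the tract is what this family is known for. RefSeq promoters on GRCm38.p6 matched 60 of the 80 genes by symbol. Each line gives 30 bases on the gene's strand, from 10 before the listed start to 20 from the start on. Capitals mark the longest pyrimidine run of at least 5 bases at or within 5 bases of the start. The first 4 have a C at the listed start followed by at least 4 more pyrimidines, and the last 3 do not.
Rps6, chr4:86857348-86857377, minus strand: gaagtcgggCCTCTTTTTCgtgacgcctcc
Rps18, chr17:33955646-33955675, minus strand: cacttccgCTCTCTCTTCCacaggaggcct
Rpl15, chr14:18270967-18270996, minus strand: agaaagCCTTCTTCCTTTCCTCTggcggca
Rps27, chr3:90213629-90213658, minus strand: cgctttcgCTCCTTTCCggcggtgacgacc
Rpsa, chr9:120127756-120127785, plus strand: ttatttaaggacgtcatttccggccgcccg
Rplp0, chr5:115559457-115559486, plus strand: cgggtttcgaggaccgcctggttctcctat
Rpl39, chrX:37085203-37085232, minus strand: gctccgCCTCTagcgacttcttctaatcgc

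A C at a listed start with at least 4 more pyrimidines after it was found in 13 of the 60 genes (21.7%), against 3.01% of the 27025 genes in the RefSeq table. The search read the gene's strand only and asked for the exact listed base, so it depends on how precisely a start is placed. Of the genes with such a start, Rps6 and Rps18 were higher and Rpl15 and Rps27 lower in conditioned media by the test described below. In all, 2 of the 11 tested genes with such a start passed the test upwards and 2 downwards (median log2 fold change 0.04), near the shares over all genes, of which 15.7% passed upwards and 14.8% downwards. Among 43 tested genes with listed starts but no such match, 12 passed upwards and 5 downwards (median 0.04). No test was made between these sets.

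Of the 80 genes, 74 had enough counts to be tested, 44 of the large and 30 of the small subunit. Total counts per sample were 15391754 to 21637966, and the least abundant tested gene had 5617 counts over the 8 samples. A floor of 3 counts in a library corresponded to 0.139 to 0.195 CPM (counts scaled to the library size). The other 6 genes were not tested. Rpl10l and Rpl39l, retrogene copies of Rpl10 and Rpl39 known from the testis, had 0 counts in all 8 samples. Rpl3l, the copy of Rpl3 found in striated muscle, had 1 to 7 counts per sample, and at most 0.356 CPM.

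Counts of 0 or near 0 were also listed for genes of proteins that belong to every ribosome. Rpl13 and Rpl35 stood at 0 in all 8 samples, and Rps10 had 0 to 7 counts per sample and 19 in all. In GENCODE M21 all exons of Rpl13 lie in the span of Gm20388 on the same strand, to which 26860 counts were assigned. Of the Rpl13 exon bases, 0% are shared with the exons of Gm20388. All exons of Rpl35 lie in the spans of Arpc5l and Wdr38 on the opposite strand, and 66.2% of its exon bases are shared with their exons. RPS10-NUDT3, on the same strand as Rps10, had 44 counts in all. Of the Rps10 exon bases, 81.5% lie in the span of RPS10-NUDT3 and 20.6% are shared with its exons. The part of this overlap in the low counts was not tested, and the values for these genes are no measure of their expression. Among the 74 tested genes, 13 share exon bases with another listed gene, the largest share being 59.7% for Rpl23a with Tlcd1.

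Ribosomal protein genes have many processed copies. Of the 50-base words in their coding sequences, a median of 92.3% also occur in another GENCODE gene, and in 28 of the 74 tested genes every word does. How reads with several matches were counted is not given in the sources used here, so levels set between these genes are uncertain. Both groups were counted in the same way.

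Because these are bulk samples, fewer or more cells of a type and less or more RNA per cell cannot be told apart in any of the values below. The ribosomal protein genes together took 5.52%, 5.53%, 5.60% and 5.49% of all counts in control replicates 1 to 4. In conditioned media they took 5.73%, 5.72%, 5.67% and 5.63%. Every conditioned sample lay above every control sample, with means of 5.53% ± 0.0491 and 5.69% ± 0.0435 (SD, n = 4 each). Within a single sample, counting error was smaller than these gaps: the 95% Wilson interval of control replicate 1 ran from 5.50% to 5.53%, and it covers counting error only. Without the 10 genes of highest counts in the table, 3 of which are ribosomal protein genes, the difference between the means was 0.0998 percentage points in place of 0.153.

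Levels were compared between genes per kilobase of coding sequence, as mean normalised CPM over the 8 samples. Rplp0, the base of the stalk that recruits elongation factors, was highest at 4482 CPM per coding kilobase. Rpl41, which encodes the smallest ribosomal protein, followed at 3913, Rpsa, a small subunit protein also known as the laminin receptor, at 3678, and Rps26, which lines the mRNA exit channel, at 3139. At the low end stood Rpl39, a small protein of the exit tunnel, at 256, Rps27l, a paralogue of Rps27 that is a known p53 target, at 231, and Rpl13a at 127. In GENCODE M21, 82.8% of the Rpl13a exon bases lie in the span of Gm45713 on the same strand and 29.4% are shared with its exons, so the level of Rpl13a is uncertain. Neighbours in this order could lie close together: Rpl4 and Rps2 were both at 2408. The order depends on the length used. Per kilobase of transcript, a scale added after seeing the data, Rplp0 was again highest at 3139 CPM, while Rpsa was at 2035, Rps26 at 1590 and Rpl41 at 539.5, rank 56 of the 74 tested genes. Rpl39 at 64, Rpl13a at 74.01 and Rps27l at 116.4 were low on that scale too.

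**Figure D1:**
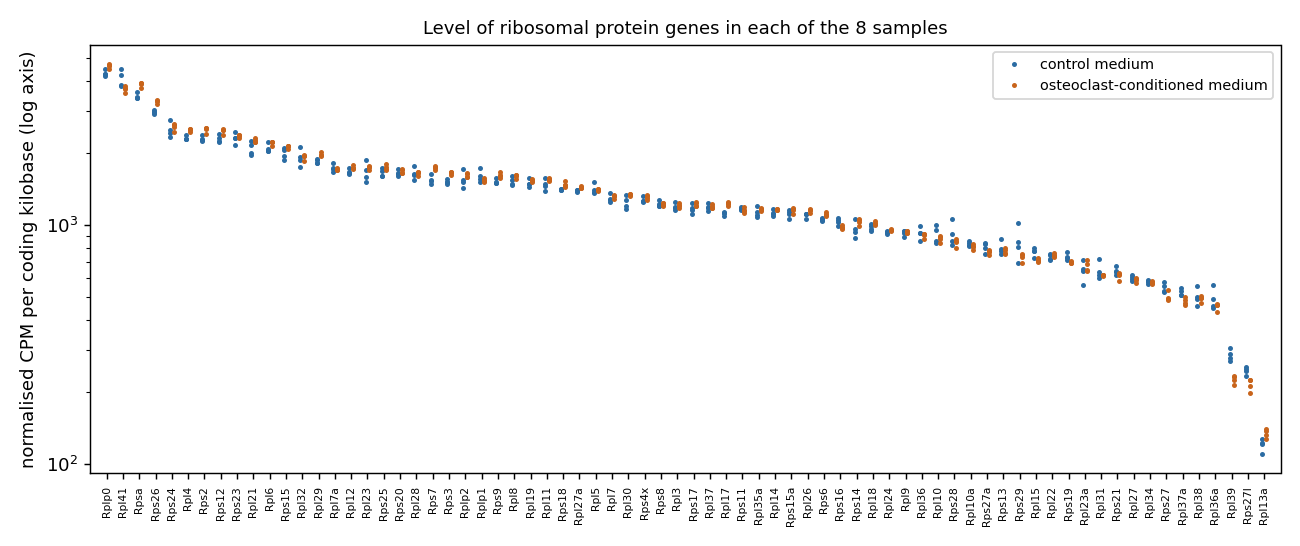
Normalised CPM per coding kilobase (log axis) of 72 of the 74 tested ribosomal protein genes in each of the 8 samples, ordered by mean level; each point is a sample, blue for control and orange for osteoclast-conditioned media. Most genes form a continuous slope, and Rpl39, Rps27l and Rpl13a lie below the rest, with means of 256, 231 and 127.

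In conditioned media 20 ribosomal protein genes rose and 7 fell, and 47 did not pass the test. The 27 called genes are 36.5% of the 74 tested, where 30.5% of all 10729 tested genes were called (edgeR quasi-likelihood test, adjusted p under 0.05 over all genes). Upward calls made up 27% of the ribosomal protein genes and 15.7% of all genes, and downward calls 9.46% and 14.8%. The changes were small. Of the 27 called genes, 26 changed by less than 1.2-fold, their median absolute log2 fold change was 0.12, and the exception was Rpl39. The median over all 74 genes was 0.04, beside -0.01 over all tested genes. Groups did not overlap for 21 of the 74 genes (28.4%), 15 of them higher and 6 lower, beside 28.2% of all genes.

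In the small subunit 11 of 30 genes rose and 3 fell, with a median log2 fold change of 0.04. In the large subunit 9 of 44 rose and 4 fell, with a median of 0.03. The split between rises and falls moved with the scaling: with total counts in place of TMM factors it was 13 to 10 (6 to 4 in the large and 7 to 6 in the small subunit), while the median over all genes shifted by -0.02. With an offset for GC content and transcript length it was 35 to 2, and with the longest transcript as the length, an alternative chosen after seeing the data, 32 to 3. Over all genes, 31.6% were called with total counts (12.9% up and 18.8% down), 29.6% with the offset (16.1% and 13.5%) and 29.2% with the longest transcript (15.9% and 13.3%). Without control replicate 1 or without conditioned replicate 1 there were 13 rises (17.6%, beside 13.8% and 13.7% of all genes), 7 of them in the small subunit. Without control replicate 2 there were 11 falls (14.9%, beside 16% of all genes), 5 of them in the small subunit. Without control replicate 3 there were 14 rises in the large subunit, where 15% of all genes rose. Without control replicate 4 there were 5 falls in the small subunit, where 12.1% of all genes fell.

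**Figure D2:**
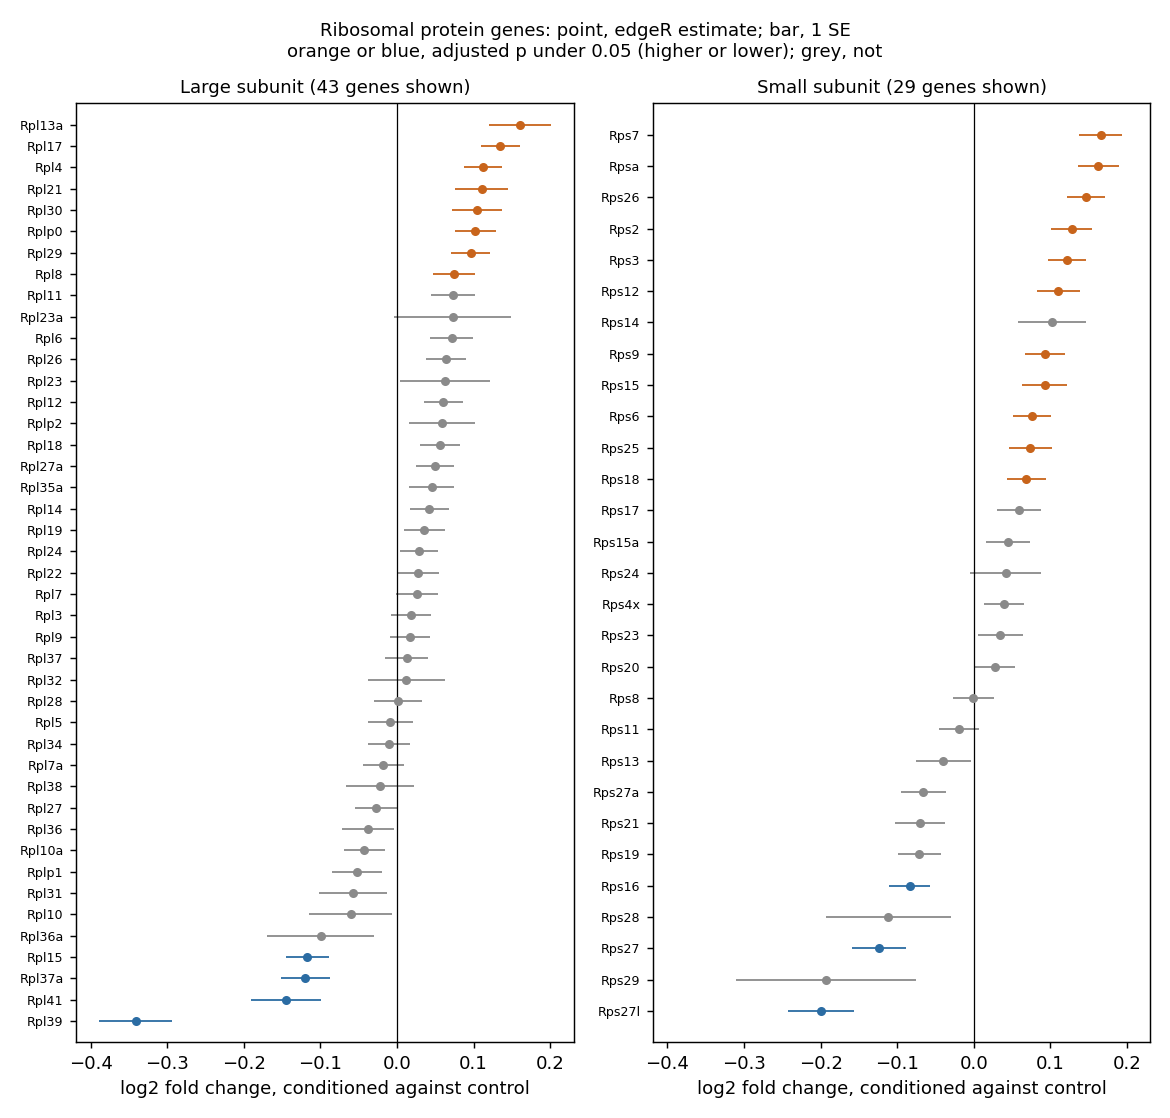
Log2 fold change, conditioned against control media, of 43 of the 44 large subunit genes (left) and 29 of the 30 small subunit genes (right) tested, with bars of 1 SE; orange and blue points passed the test upwards and downwards, and grey points did not. Shown are 11 rises and 3 falls in the small subunit and 8 rises and 4 falls in the large, and Rpl39 at -0.34 lies farthest from 0.

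Of the 8 largest rises, 5 were genes of the small subunit: Rps7, Rpsa, Rps26, Rps2 and Rps3. Rps7 (ENSMUSG00000061477, chr12:28630854-28635953), a protein of the small subunit body, had 888.9, 955.7, 865.2 and 902.5 CPM in control replicates 1 to 4 and 1007, 1032, 1024 and 989.5 in conditioned media. All conditioned samples were above all control samples. The log2 fold change was 0.17 ± 0.03 (SE, n = 4 each, edgeR adjusted p = 3.61e-05), a rise of 12.2%.

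Rpsa (chr9:120127689-120132369), needed for processing of the small subunit rRNA, had 3050, 3210, 3007 and 3019 CPM in control media and 3470, 3473, 3494 and 3315 in conditioned media. The groups were apart, with conditioned replicate 4 nearest to the control samples. Its log2 fold change was 0.16 ± 0.03 (edgeR adjusted p = 2.33e-05). Rps26 (chr10:128624534-128626747) had 1008, 1052, 1025 and 1027 CPM in control media and 1139, 1148, 1152 and 1113 in conditioned media, again without overlap, and a log2 fold change of 0.15 ± 0.03 (edgeR adjusted p = 3.76e-05).

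Rps2 and Rps3 sit at the mRNA entry channel, where the ribosome unwinds mRNA. For Rps2 the control samples ran from 1972 to 2104 CPM and the conditioned samples from 2126 to 2246, with a log2 fold change of 0.13. For Rps3 they ran from 1087 to 1140 and from 1184 to 1222, with a log2 fold change of 0.12. Neither gene's groups overlapped.

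In the large subunit Rpl13a and Rpl17 were among the largest rises. Rpl17, whose protein lines the exit tunnel, had 602, 622, 622.6 and 626.3 CPM in control media and 689.3, 685.1, 674.7 and 666.6 in conditioned media. The groups were apart by more than the range within either, and the log2 fold change was 0.14 ± 0.03 (edgeR adjusted p = 0.000118). Rpl13a, known outside the ribosome for a complex that silences translation in interferon-treated myeloid cells, ran from 67.13 to 77.41 and from 77.84 to 85.24 CPM (log2 fold change 0.16). Its groups were separated only narrowly, and 29.4% of its exon bases are shared with Gm45713. These 7 named genes passed the test in the same direction in all 22 alternative settings.

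Of the 7 falls, Rpl39 was the largest. Rpl39 (ENSMUSG00000079641, chrX:37082520-37085402), whose short protein forms part of the exit tunnel wall, had 44.36, 42.62, 46.74 and 41.48 CPM in control media and 34.39, 35.63, 32.64 and 35.47 in conditioned media. The highest conditioned sample was well below the lowest control sample. It fell by 21.1%, a log2 fold change of -0.34 ± 0.05 (SE, n = 4 each, edgeR adjusted p = 1.92e-06), and the fall passed the test in all 22 alternatives. Its copy Rpl39l was at 0 in both groups.

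Rps27l (chr9:66946086-66949516) had 58.75, 61.95, 64.48 and 63.15 CPM in control media and 53.31, 56.4, 50.04 and 56.71 in conditioned media, with no overlap. Its log2 fold change was -0.20 ± 0.04 (edgeR adjusted p = 0.000638), and it too passed in all 22 alternatives. Its paralogue Rps27, a zinc-finger protein of the small subunit, had 134, 132.6, 146.2 and 139.7 CPM in control media and 135.2, 124.9, 122.7 and 123.3 in conditioned media. Conditioned replicate 1 lay among the control samples, and the log2 fold change was -0.12 ± 0.04 (edgeR adjusted p = 0.00878). The call for Rps27 was lost with the offset for GC content and length (edgeR adjusted p = 0.292).

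Rpl15, a large subunit protein whose loss is among the causes of Diamond-Blackfan anaemia, had 489.2, 477.9, 478.7 and 447.4 CPM in control media and 447.3, 435.6, 430.7 and 432 in conditioned media. The lowest control and the highest conditioned sample nearly touched, and the log2 fold change was -0.12 ± 0.03 (edgeR adjusted p = 0.00172). Rpl37a, with a zinc finger, ran from 140.8 to 150.2 CPM in control media and from 127.8 to 138.7 in conditioned media (log2 fold change -0.12). Rpl41, with 318.6, 288.3, 337.4 and 289.4 against 285.9, 278.2, 269.6 and 280.8 CPM, did not overlap either. Its control samples were the more scattered, and its log2 fold change was -0.14 ± 0.05 (edgeR adjusted p = 0.027).

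Rps16, of the small subunit head, overlapped between groups, at 436.7 to 471.3 and 420.9 to 440.5 CPM (log2 fold change -0.08). The calls of Rpl15, Rpl37a, Rpl41 and Rps16 were lost with the offset for GC content and transcript length, where their edgeR adjusted p was 0.0939, 0.166, 0.0589 and 0.243. With the longest transcript as the length, Rpl15 kept its call (log2 fold change -0.09, edgeR adjusted p = 0.0272) and the other 3 did not. Rpl41 also lost its call without control replicate 1 or conditioned replicate 2, 3 or 4, with log2 fold changes between -0.18 and -0.10 when any 1 sample was left out. Rps16 lost it without control replicate 3 or conditioned replicate 2 or 3, with values between -0.10 and -0.07. The falls of Rpl39 and Rps27l kept edgeR adjusted p of 7.70e-06 and 0.0101 under the offset, at log2 fold changes of -0.28 and -0.14.

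**Figure D3:**
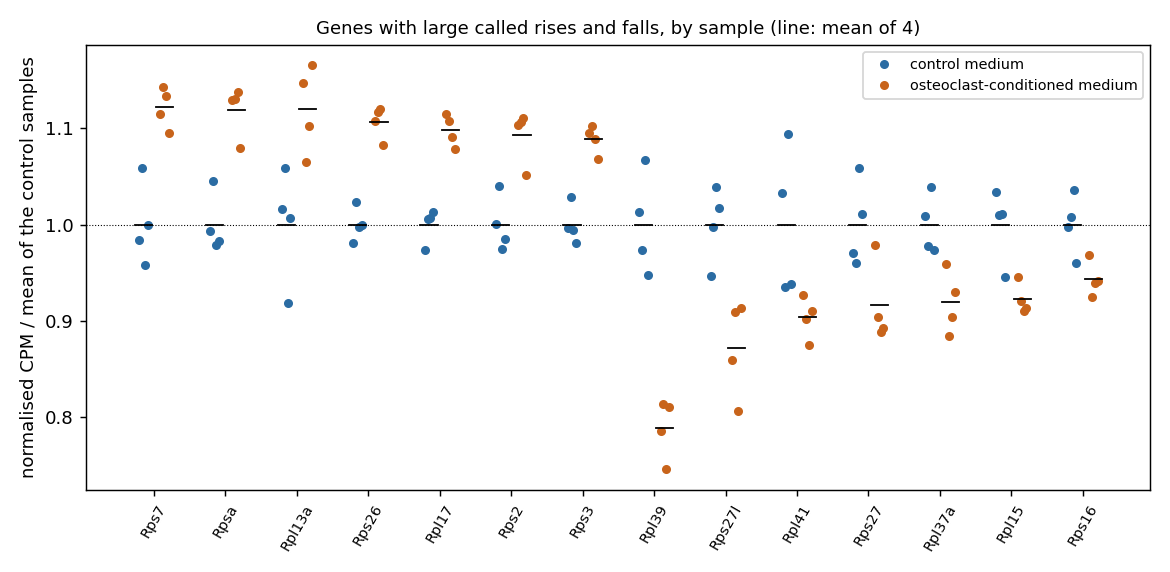
Normalised CPM of 7 of the 8 largest rises and the 7 falls among ribosomal protein genes, each divided by the mean of its 4 control samples (vertical axis); points are samples, blue for control and orange for osteoclast-conditioned media, and black lines are means of 4. Rps27 and Rps16 overlap between groups, the other 12 do not, and Rpl39 is the farthest from 1, with a mean 21.1% below control.

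The stalk of the large subunit is made of Rplp0, dimers of Rplp1 and Rplp2, and at its base Rpl12. Of these 4, Rplp0 alone passed the test (25%, beside 30.5% of all genes called). Rplp0 had 4080, 4293, 4069 and 4004 CPM in control media and 4495, 4459, 4421 and 4280 in conditioned media, a log2 fold change of 0.10 ± 0.03 (edgeR adjusted p = 0.00363). Control replicate 2 and conditioned replicate 4 overlapped. Log2 fold changes were -0.05 for Rplp1, 0.06 for Rplp2 and 0.06 for Rpl12. With 1 sample left out they ran from -0.08 to -0.01, from 0.02 to 0.11 and from 0.05 to 0.08. With the offset for GC content and transcript length Rplp2 and Rpl12 passed too, which made 75% of the stalk genes beside 29.6% of all genes. Rplp1, Rplp2 and Rpl12 each passed when 1 control sample was left out (replicate 2 for Rplp1, replicate 3 for the others).

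Rpl5 and Rpl11 form a particle with 5S rRNA that can also bind Mdm2 and so stabilise p53. Neither passed the test. Rpl5 had 1247, 1216, 1354 and 1227 CPM in control media and 1268, 1249, 1236 and 1259 in conditioned media (log2 fold change -0.01, of the opposite sign at 0.03 without control replicate 3). Rpl11 ran from 745.5 to 838.2 and from 819.2 to 840 CPM, at 0.07 ± 0.03 (edgeR adjusted p = 0.055). Rpl11 passed in 8 of 22 alternatives, among them the fit without control replicate 3, its highest control sample.

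Around the peptide exit tunnel, Rpl4 and Rpl17 rose and Rpl39 fell among the 7 tested of 8 listed proteins. The other 4 did not pass the test. The 3 calls are 42.9% of these few genes, beside 30.5% of all genes, and with the offset for GC content and transcript length 4 rose and 1 fell, beside 29.6% of all genes called. Rpl4 had 2875, 3009, 2880 and 2873 CPM in control media and 3145, 3181, 3172 and 3082 in conditioned media, without overlap (log2 fold change 0.11 ± 0.03, edgeR adjusted p = 0.000923). In the head of the small subunit 5 of 13 tested genes rose (Rps3, Rps12, Rps15, Rps18 and Rps25) and 1, Rps16, fell, which is 38.5% up and 7.69% down beside 15.7% and 14.8% of all genes. With total counts as the scaling, the head counted 2 rises and 3 falls (15.4% and 23.1%, beside 12.9% and 18.8% of all genes). In the body and foot 6 of 17 rose (Rps7, Rpsa, Rps26, Rps2, Rps9 and Rps6), and Rps27 and Rps27l fell (35.3% up and 11.8% down). Of these rises, Rps25 held in 10 of the 22 alternatives, Rps18 in 14, Rps15 in 18 and Rps6 in 17, with losses for each when control replicate 1 or conditioned replicate 1 was left out.

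Rps6, the protein phosphorylated by the S6 kinases downstream of mTOR, had 781, 801.4, 789.3 and 786.8 CPM in control media and 850.6, 827.4, 831 and 819.7 in conditioned media. The groups did not overlap, and the log2 fold change was 0.08 ± 0.02 (edgeR adjusted p = 0.0199). Its call was lost with total counts as the scaling and without control replicate 1, conditioned replicate 1 or conditioned replicate 3. Rps19, the gene most often mutated in Diamond-Blackfan anaemia, had 319.9, 315.6, 336.4 and 309.7 CPM in control media and 309.4, 304.5, 303.6 and 301.9 in conditioned media. These groups were separate by a narrow margin, and the difference just missed the threshold (log2 fold change -0.07 ± 0.03, edgeR adjusted p = 0.0508). It passed in 5 of 22 alternatives, among them those without control replicate 2 or 4. With the offset for GC content and transcript length it was at -0.02 (edgeR adjusted p = 0.614). With the longest transcript it was at -0.06 (edgeR adjusted p = 0.144).

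Rps27a, which is made as a fusion with ubiquitin, had a log2 fold change of -0.07, Rpl3, near the peptidyl transferase centre, of 0.02, Rpl10, which joins the large subunit last, of -0.06, and the X-linked Rps4x of 0.04. These 4 genes overlapped between groups and did not pass the test. Rps27a passed without control replicate 4 and under 2 of the scalings, and Rps4x passed with the length offset. With 1 sample left out Rpl10 ran from -0.10 to -0.01 and Rpl3 from 0.01 to 0.04.

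Fold changes varied with the length of the coding sequence, which ran from 75 bases (Rpl41) to 1257 (Rpl4), and with abundance. Among the 18 shortest genes, with at most 351 coding bases, 2 rose and 5 fell (11.1% and 27.8%, beside 15.7% and 14.8% of all genes), with a median log2 fold change of -0.06. Rps26 and Rpl30 were the rises there, and Rpl41, Rpl39, Rps27, Rps27l and Rpl37a the falls. Among the 19 longest, with at least 612 bases, 7 rose and 1, Rpl15, fell (36.8% and 5.26%), with a median of 0.04. Across the 74 genes, log2 coding length and log2 fold change had a Pearson r of 0.589 and a Spearman rho of 0.462, as a description over genes of the same 8 libraries. Fold change followed log2 CPM more closely, with r of 0.690 and rho of 0.631 (r of 0.888 among the 30 small subunit and 0.553 among the 44 large subunit genes), and length and CPM were themselves related (r 0.742), so these descriptions do not separate length from abundance. With the offset for GC content and transcript length r between length and fold change was 0.527. The 18 shortest genes then counted 4 rises and 2 falls (22.2% and 11.1%, near the 16.1% and 13.5% of all genes), and 3 and 2 with the longest transcript, and their median was 0.01 with the first offset. The 19 longest counted 10 rises (52.6%) with a median of 0.09. Over all 10725 tested genes with a length, rho between transcript length and fold change was 0.201.

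**Figure D4:**
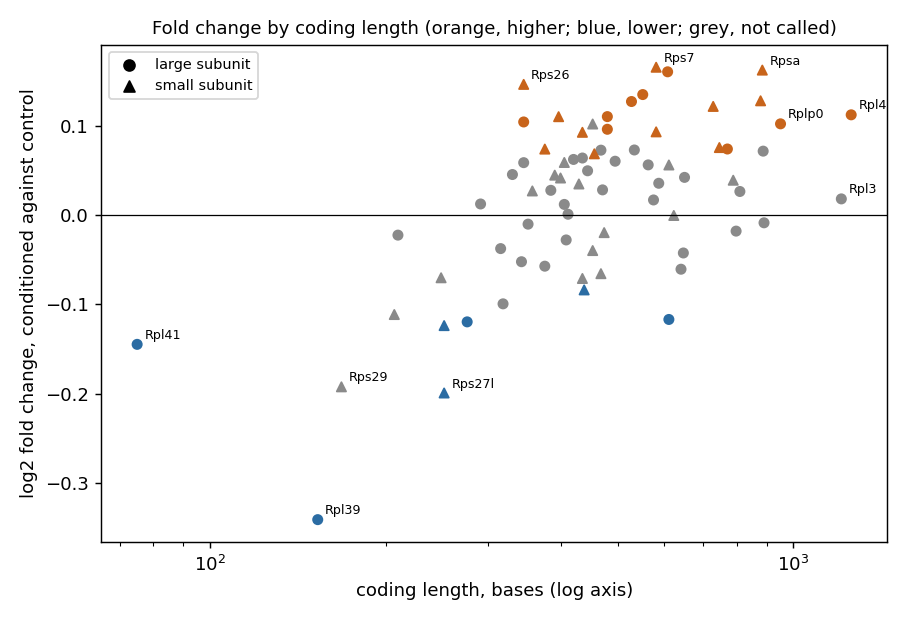
Log2 fold change (vertical axis) against coding length in bases (log axis) for the 74 tested ribosomal protein genes, circles for the large and triangles for the small subunit, orange and blue where the test was passed upwards and downwards and grey where it was not. Rpl41, Rpl39, Rps29 and Rps27l lie low among the short genes, while no gene of 612 bases or more except Rpl15 is blue.

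The most variable ribosomal protein gene in control media was a short one. Rps29, a zinc-finger protein of the small subunit head with 168 coding bases, had 135.8, 116.2, 171.2 and 142.9 CPM in control media and 123.4, 127.2, 116.8 and 125.6 in conditioned media. Its control samples spanned all its conditioned samples, and its coefficient of variation in control media, 16.1%, was the highest of the 74 genes. The log2 fold change was -0.19 ± 0.12 (SE, n = 4 each, edgeR adjusted p = 0.281), not past the threshold. It ran from -0.28 without control replicate 2 to -0.09 without control replicate 3. The median coefficient of variation over the ribosomal protein genes was 3.82% in control and 1.86% in conditioned media, beside 4.91% and 4.18% over all tested genes.

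Control replicate 3 was the highest control sample for 16 of the 18 shortest genes, and for 41 of all 74. Control replicate 2 was the lowest control sample for 13 of the 18 shortest genes and the highest for 14 of the 19 longest. Conditioned replicate 4 was the lowest conditioned sample for 15 of the 19 longest. Conditioned replicate 4 was lowest for 5 and highest for 5 of the 18 shortest genes, and control replicate 3 was lowest for 8 of the 19 longest, so of these samples control replicate 2 alone stood mostly at opposite ends for short and long genes. The part of this in the differences between media was not tested.

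The large subunit took 3.30%, 3.30%, 3.36% and 3.28% of counts in control media and 3.40%, 3.39%, 3.36% and 3.36% in conditioned media, with overlap through control replicate 3. The small subunit took 2.21%, 2.24%, 2.24% and 2.21% in control media and 2.33%, 2.33%, 2.31% and 2.28% in conditioned media, without overlap. The ratio of large to small subunit counts was 1.4953, 1.4737, 1.5036 and 1.4843 in control media and 1.4555, 1.4565, 1.4580 and 1.4722 in conditioned media. The lowest control sample was just above the highest conditioned sample, replicate 4. The ratio is of summed counts, so abundant genes such as Rpsa weigh most in it. The part of single genes in this narrow separation was not tested. The mean ratio was 1.489 ± 0.013 in control and 1.461 ± 0.00785 in conditioned media (SD, n = 4 each). The difference of -0.0287 was -0.0252 when each gene was counted per kilobase of transcript.

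**Figure D5:**
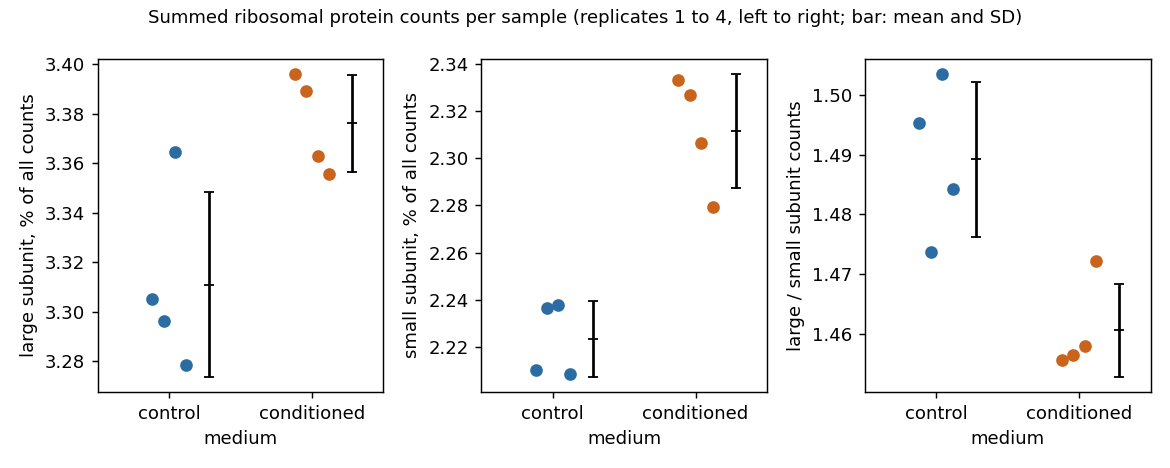
Share of all counts taken by large subunit genes (left) and small subunit genes (middle), in percent, and the ratio of large to small subunit counts (right), by medium; points are replicates 1 to 4 from left to right, and bars are mean and SD. The axes do not start at 0: the small subunit share is higher in all 4 conditioned samples, at 2.28% to 2.33%, and their ratio is lower, at 1.4555 to 1.4722.

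The rule leaves out 7 genes of proteins that are part of the ribosome, related to one or fused to one. Rack1, a scaffold on the head of the small subunit, had 1658, 1756, 1644 and 1643 CPM in control media and 1832, 1815, 1829 and 1788 in conditioned media. All conditioned samples were higher, and the log2 fold change was 0.12 ± 0.03 (edgeR adjusted p = 0.000937). Rpl7l1, a paralogue of Rpl7 known from ribosome assembly, fell, from 107.3, 113.3, 110.4 and 104.2 CPM to 101.5, 100.1, 98.84 and 97.14, with no overlap (log2 fold change -0.13, edgeR adjusted p = 0.00301).

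Rpl22l1, the paralogue of Rpl22, had 13.83 to 16.84 CPM in control and 12.15 to 13.74 in conditioned media. This separation missed the threshold (log2 fold change -0.19 ± 0.08, edgeR adjusted p = 0.0581). It passed in 4 of the 22 alternatives: without control replicate 3 or 4, with total counts and with upper quartile scaling. With 1 sample left out the log2 fold change ran from -0.22 to -0.11. Rps3a1 at 0.04 and Fau, a ubiquitin-like fusion with ribosomal protein S30, at 0.00 did not pass. Rpl36al had 14 counts in all. In GENCODE M21, 92.4% of its exon bases lie in the span of Gm49383 on the same strand and 24.5% are shared with exons of Gm49383. The part of this overlap in the low counts was not tested, and they are not read as a measure of the gene.

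Other genes whose mRNAs carry a TOP tract were also listed: 10 of the 19 tested of 20 rose, and the other 9 did not pass the test (median log2 fold change 0.08), a share of 52.6% beside 15.7% of all genes called upwards. The list shares genes, Rack1 and Fau among them, with the genes outside the rule. Eef2, the translocation factor, had the largest rise at 0.20 ± 0.03, from 6329 ± 135 to 7285 ± 145 CPM (SD, n = 4 each, edgeR adjusted p = 3.14e-07). Pabpc1, the poly(A)-binding protein, rose by 0.15, Vim by 0.13 and Eef1a1, which delivers aminoacyl-tRNA, by 0.10. With total counts as the scaling 9 rose and 1 fell (47.4% and 5.26%, beside 12.9% and 18.8% of all genes).

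Of the 8 listed chaperones dedicated to single ribosomal proteins, 7 were tested. Grwd1, a chaperone of Rpl3, fell by 0.14 on the log2 scale (edgeR adjusted p = 0.019) and Heatr3, which imports Rpl5, by 0.13 (edgeR adjusted p = 0.00432), and the other 5 did not pass. These are 28.6% called, beside 30.5% of all genes, and with either offset for GC content and length 2 of the 7 rose and 1 fell, where 16.1% and 13.5% of all genes did with transcript length and 15.9% and 13.3% with the longest transcript. The mitochondrial ribosomal proteins, encoded by a separate set of genes, counted 2 rises (Mrps15 and Mrps28) and 16 falls among 74 tested, with a median log2 fold change of -0.05. Falls were 21.6% of these genes, beside 14.8% of all genes. Mrpl24 fell by 0.33 and Mrpl16 by 0.23. With the offset for GC content and transcript length there were 2 rises and 8 falls, and falls were then 10.8% of these genes beside 13.5% of all genes, while their median was -0.03 beside -0.00 over all genes. Their share of counts was 0.349% ± 0.00363 in control and 0.333% ± 0.0017 in conditioned media, without overlap, while the cytosolic share was higher in every conditioned sample.

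The leukocyte marker Ptprc was at 426.9 to 435 CPM in control and 470.2 to 485 in conditioned media, and the 8 listed B-lineage markers, all tested, summed to 3967 to 3991 and 4205 to 4226 CPM. Of 9 osteoclast markers, Dcstamp and Ocstamp were at 0 in all samples, 2 (Acp5 and Itgb3) had enough counts to be tested, and the sums were 35.47 to 36.97 and 34.29 to 37.54 CPM. Of 6 macrophage markers Cd14 and Itgam were at 0, and the sums were 6.377 to 7.186 and 7.463 to 9.221 CPM. The part of these markers in the ribosomal protein values was not tested.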

How the data were processed

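RNA sequencing of 8 PER-M60 cultures was analysed from the whole-number counts per Ensembl gene that the authors deposited, which were not normalised. Per the labels' protocols, RNA came from RNeasy Plus Mini columns and libraries from the SureSelect HS2 kit. The submitters' processing notes name STAR 2.7.5a, featureCounts 2.0.1 and mm10. Annotation release, strand setting, use of molecular barcodes and treatment of reads with several matches are not given in the sources used here. All columns were matched to samples through their titles.

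The members, gene lists and tests were chosen with earlier results of these data known. Symbols, spans, exons and coding lengths came from GENCODE M21 on GRCm38, which matched 21817 of 21859 identifiers, and start sites from RefSeq. Genes passing filterByExpr (10729) were scaled by TMM and tested with edgeR 4.0.16 in R 4.3.3 (glmQLFit, robust, then glmQLFTest with medium as the term), with p-values adjusted by Benjamini-Hochberg over all genes at a threshold of 0.05. The common biological coefficient of variation was 0.0304. SEs are the absolute log2 fold change divided by the root of F. CPM are TMM-scaled, and shares and sums are described without a test. At 15391754 to 21637966 counts per sample, counting intervals are Wilson at 95%. Replicate samples differed beyond sampling noise (chi-square per degree of freedom 1.38 to 5.27), so no 2 were taken for 1 library deposited in duplicate. This does not show that the cultures are independent.

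Named genes were the 8 largest rises and up to 8 largest falls past the threshold, and, whatever their result, the stalk and 5S genes, Rpsa, Rps6, Rps19, Rps27a, Rpl3, Rpl10, genes with an l suffix with their parents, and the 7 genes outside the rule. Some genes that this rule or the counts include are not reported here by name. Of those with an l suffix, Rps4l is a pseudogene in GENCODE M21 and is not a member. Rps29, Rpl4 and genes named only in counts of called genes or of other lists were chosen after their values were seen. On simulated counts with 200 changed genes (10678 genes run), 30% of genes given a 1.1-fold change were recovered. The share was 59.2% for a 1.2-fold, 96% for a 1.5-fold and 95.9% for a 2-fold change. False calls were 4.79%. In the data 3273 genes were called, so the simulated shares need not hold there. Annotation and figures were made in Python 3.11.15 with pandas 2.3.3, with scipy 1.17.1 for intervals and matplotlib 3.10.9 for plots.

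Alternatives were DESeq2 size factors, total counts, upper quartile and TMM without the members as scalings, no filter or a mean of at least 50 counts, DESeq2 1.42.0, limma-voom (limma 3.58.1), no robust estimation, the replicate block, a loess offset (span 0.5) on GC content and transcript length with and without the block, an adjusted p under 0.01, and each sample left out. An offset on the longest transcript was added after seeing the data.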

Additional observations from a re-analysis of the deposited data

Results flagged for a closer look

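Single samples stood apart from the other 3 of their group in 5 of 68 groups of 4 examined, where chance gives about 3.4. Each gap to the nearest sample, as a share of the group's range, was above Dixon's 95% critical value. Rpsa was lowest in conditioned replicate 4, at 3315 CPM against 3470 to 3494 in the others. Rps2 was lowest in that sample too, at 2126 against 2233 to 2246 CPM, and the ratio of large to small subunit counts was highest there, at 1.472. Control replicate 2 was highest for Rps4x, at 1042 CPM against 985.8 to 993, and for Rack1, at 1756 against 1643 to 1658 CPM.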

How the results depend on the processing

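No gene among the 27 called was called in the opposite direction in any of the 22 alternatives, DESeq2 and limma-voom among them. The number of calls lay between 19 and 34 when 1 sample was left out. Rises then numbered 13 to 27 and falls 5 to 11, with 6 to 14 and 3 to 6 in the large subunit and 7 to 13 and 2 to 5 in the small subunit. Over all genes 24.4% to 33.1% were then called, 12.9% to 17.1% up and 11.3% to 16.0% down. With total counts 13 rose, 7 of them in the small subunit, where 6 fell. With upper quartile scaling 5 fell in the small subunit (14.5% up and 16.1% down over all genes). At an adjusted p under 0.01, 13 rose, 7 of them in the small subunit (11.2% of all genes rose).

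With the offset on GC content and transcript length 35 rose and 2 fell (21 and 1 in the large subunit, 1 fall in the small). With the offset on the longest transcript, added after seeing the data, 32 rose and 3 fell (17 and 2, and 1 fall in the small subunit). The cause of these shifts was not tested.

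Same-numbered cultures did not deviate together (correlations -0.03, 0.09, -0.05 and 0.14), and 3 of 8 correlated best with their own number, so the numbers were not taken to pair them. The replicate block gave 30 calls, 22 up and 8 down, beside 32.1% of all genes. With the block and the offset there were 43, 40 up and 3 down, which is 58.1% beside 31.5% of all genes (24 and 2 in the large subunit, 1 fall in the small), and Rpl41 kept its call (edgeR adjusted p = 0.0319).

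Uncalled genes changed sign. Rplp1 was at 0.0104 with the offset, 0.0105 with block and offset and 0.0149 with the longest transcript. Rpl5 was at 0.0213, 0.0223 and 0.0214 in those settings and ran from -0.0259 (without control replicate 2) to 0.0286 (without control replicate 3) with 1 sample left out. Fau was at 0.0549, 0.0572 and 0.0450, and ran from -0.0228 (without control replicate 3) to 0.0312 (without control replicate 2), with 0.0226 and 0.0088 without conditioned replicates 2 and 4. Rpl3 was at -0.0031 with total counts.

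The share of counts differed by 0.0998 percentage points without the 10 genes of highest counts, and by 0.1375 to 0.176 with 1 sample left out. The subunit ratio then differed by -0.0338 to -0.0239.

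Changes near 1.1-fold are at the limit of what 4 samples a group resolve, and genes with overlapping neighbours or processed copies depend on read assignment that is not given.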
